A study of Mus musculus with 6 samples.

Results

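Collagen genes were followed through 6 single-cell RNA sequencing libraries of mouse cardiomyocytes (CMs). Of the 27998 genes in the count tables, 44 had a symbol made up of Col, a type number, the letter a and a chain number. Of these, 43 had at least 1 transcript molecule counted, among 18148 genes of any kind that did, and the 1 without was Col28a1. Between 36 and 41 collagen genes were detected per library. The CMs came from the left ventricle of C57BL/6J mice at embryonic day 16.5 (E16.5), postnatal day 1 (P1) and postnatal day 5 (P5), and diploid (2n) and tetraploid (4n) cells were sorted apart, which gave the libraries E16.5-2n and E16.5-4n, P1-2n and P1-4n, and P5-2n and P5-4n. Where 6 values are given they follow this order. All cells had a viability stain, methanol fixation, staining for the CM marker MYH1 and for DNA with Hoechst, and flow sorting, and the labels give no genetic or drug treatment. The 4n gate at P5 held both mononucleated and binucleated CMs. Each library pooled the cells of 3 sorts, each from a single litter, and there was 1 library per condition. The spread between animals is therefore unknown, no p-value is given, and every interval here is an exact 95% interval of molecule counts that covers counting error only. The age of E16.5-4n is written as embryonic day 16.6 in its description and as E16.5 in its title.

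Collagens are proteins of alpha chains wound into a triple helix. Most are secreted into the extracellular matrix, some, such as those of Col13a1, Col17a1, Col23a1 and Col25a1, span the cell membrane, and each gene encodes a single type of chain. Fibrillar collagens build the fibres of the cardiac interstitium and are mostly made by fibroblasts. Type IV collagens form the network of the basement membrane, which surrounds each CM and lies under the endothelium. Type VI collagens form beaded microfibrils, FACIT collagens sit on the surface of fibrils, and the multiplexins (types XV and XVIII) lie in and next to basement membranes.

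All 43 genes had a position in the GRCm38 annotation, on 15 chromosomes. The fibrillar genes Col3a1 (chr1:45311538-45349706, plus strand), Col1a2 (chr6:4504814-4541544, plus strand) and Col1a1 (chr11:94936224-94953042, plus strand) had the most molecules. They were followed by the type IV genes Col4a1 (chr8:11198423-11312826, minus strand), Col4a2 (chr8:11312805-11449287, plus strand) and Col4a5 (chrX:141475385-141689234, plus strand). Type IV genes lie head to head in pairs. The start sites of Col4a1 and Col4a2 were at 11312826 and 11312805 on chromosome 8, so that the annotated genes overlap at their first bases. Those of Col4a4 and Col4a3 on chromosome 1 were 72 bp apart, and those of Col4a6 and Col4a5 on chromosome X 1309 bp apart.

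The promoter windows of 4 genes are shown because these genes stand for the most abundant collagens of 2 classes described below, the head-to-head type IV pair Col4a1 (42.3 to 101 CPM over the libraries) and Col4a2 (36.5 to 76.8 CPM) and the fibrillar genes Col1a2 (19.0 to 159 CPM) and Col3a1 (38.4 to 288 CPM), whose levels spanned a wider range. CPM are counted transcript molecules of a gene per 1000000 molecules. Each window is from RefSeq (GRCm38.p6), which places the start of Col1a2 inside the annotated gene above. It runs from 250 bases before to 50 bases after the start site, and is written 5' to 3' on the strand of its gene. The windows are chr8:11312777-11313076 (minus strand), chr8:11312555-11312854 (plus strand), chr6:4505368-4505667 (plus strand) and chr1:45311288-45311587 (plus strand) in the order shown. In the type IV pair, capitals mark the 78 bases that both windows hold on opposite strands (chr8:11312777-11312854). In the fibrillar genes, capitals mark the motif TATAAA, the motif CCAAT or the motif GGGCGG on either strand.
Col4a1: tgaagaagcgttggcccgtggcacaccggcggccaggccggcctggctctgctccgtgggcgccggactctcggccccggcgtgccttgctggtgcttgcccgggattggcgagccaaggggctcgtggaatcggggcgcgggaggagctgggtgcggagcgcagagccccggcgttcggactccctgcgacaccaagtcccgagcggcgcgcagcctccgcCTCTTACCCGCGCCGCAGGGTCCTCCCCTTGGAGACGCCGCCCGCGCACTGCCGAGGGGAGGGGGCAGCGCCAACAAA
Col4a2: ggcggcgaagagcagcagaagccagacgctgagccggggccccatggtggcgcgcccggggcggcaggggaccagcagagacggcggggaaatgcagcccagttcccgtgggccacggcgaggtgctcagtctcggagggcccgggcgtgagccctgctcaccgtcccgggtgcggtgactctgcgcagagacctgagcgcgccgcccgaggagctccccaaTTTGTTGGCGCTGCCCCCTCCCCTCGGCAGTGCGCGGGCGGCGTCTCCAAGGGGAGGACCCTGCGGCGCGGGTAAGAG
Col1a2: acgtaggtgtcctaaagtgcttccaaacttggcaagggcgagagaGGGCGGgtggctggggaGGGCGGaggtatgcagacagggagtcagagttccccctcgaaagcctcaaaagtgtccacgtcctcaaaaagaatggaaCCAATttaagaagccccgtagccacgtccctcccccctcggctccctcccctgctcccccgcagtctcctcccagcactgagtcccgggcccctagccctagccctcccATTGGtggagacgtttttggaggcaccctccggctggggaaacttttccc
Col3a1: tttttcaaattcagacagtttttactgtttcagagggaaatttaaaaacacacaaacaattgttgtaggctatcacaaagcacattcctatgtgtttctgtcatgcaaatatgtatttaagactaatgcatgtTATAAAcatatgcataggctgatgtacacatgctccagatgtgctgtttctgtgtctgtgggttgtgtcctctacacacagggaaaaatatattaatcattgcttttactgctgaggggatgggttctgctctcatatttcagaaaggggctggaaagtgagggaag

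G and C made up 74.0% of the window of Col4a1, 73.7% of that of Col4a2, 61.0% of that of Col1a2 and 37.7% of that of Col3a1. Searched on both strands, CCAAT and GGGCGG were each found in the windows of Col4a1, Col4a2 and Col1a2, and TATAAA in that of Col3a1, from base 134 of the window. The reference held 37 windows of 34 collagen genes, of which 5 had TATAAA, 13 CCAAT and 23 GGGCGG. Of all 32851 windows of this length, 13.6% held TATAAA, 37.4% CCAAT and 35.7% GGGCGG. These matches describe the letters of the windows only.

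The libraries held 31156 cells, of which 30733 had at least 1 unique molecular identifier (UMI, a counted transcript molecule) of each of the CM genes Tnni3, Tnnt2, Tnnc1 and Actc1 and were taken as CMs, 3654 to 7340 per library with medians of 1831 to 4658 UMIs per cell. CMs with at least 3 of the fibroblast markers Dcn, Lum and Dpt and the endothelial markers Kdr and Cdh5 detected are called marker-positive, and all others marker-negative. With only Kdr and Cdh5 as endothelial markers, no cell could reach 3 by endothelial markers alone, so such cells count as marker-negative. Marker-positive CMs numbered 25, 107, 34, 317, 83 and 123 in the 6 libraries, or 0.439 to 6.68% of CMs. Of these 689 cells, 364 had fibroblast markers only and 325 had markers of both kinds. They had more UMIs than marker-negative CMs (medians of 3507 to 7493 against 1828 to 4622 per cell), and the CM genes took 2.045 to 2.50% of their UMIs against 2.55 to 3.22%. No doublets were called or removed here. Separately, 499 cell barcodes occurred in more than 1 library, and whether this is more than by chance was not tested. Levels are in CPM, the UMIs of a gene per 1000000 UMIs of the same cells. A UMI at the 3' end counts a molecule whatever its length, so levels were not scaled by gene length.

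Summed over all members, collagens were highest in the tetraploid CMs of E16.5 and P1 and lowest in the diploid CMs of the same ages. The sums were 275, 896, 254, 1073, 424 and 500.4 CPM in the 6 libraries. In these bulk sums, fewer cells of a kind and less RNA per cell cannot be told apart. Fibrillar collagens varied widely, with 94.8, 563, 96.1, 679, 185 and 261 CPM in the same order. The basement membrane collagens had 123, 166, 123, 216, 183.5 and 175 CPM, a much narrower span. Type IV collagens thus took 44.75% of the collagen UMIs of diploid CMs at E16.5 and 48.4% at P1, but 18.5% and 20.2% of those of tetraploid CMs, where fibrillar collagens took 62.8% and 63.3%. At P5 type IV collagens took 43.3% in 2n and 35.0% in 4n CMs. Microfibril collagens (20.2 to 91.4 CPM), FACIT collagens (7.36 to 52.9 CPM) and multiplexins (6.45 to 33.2 CPM) were also highest in E16.5-4n and P1-4n.

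**Figure D1:**
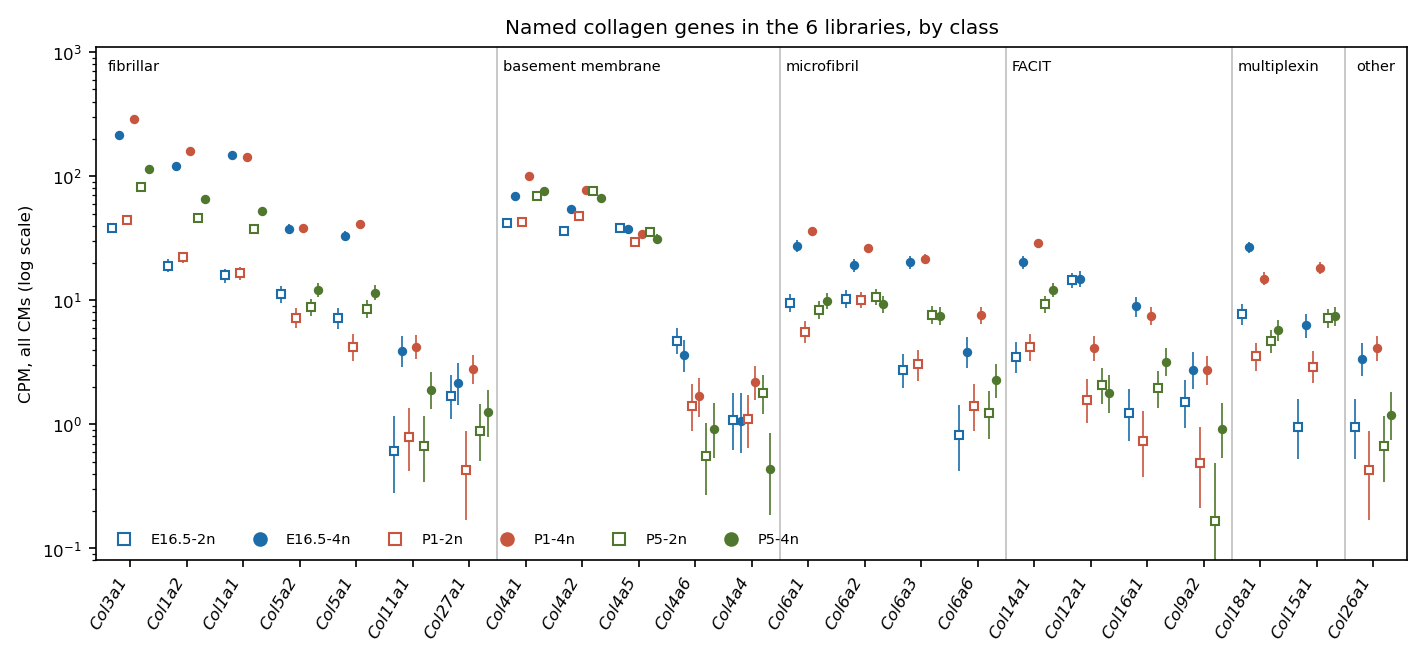
Level in CPM (log axis) of the 23 collagen genes with at least 100 UMIs in CMs, grouped by class, over all CMs of each library; open squares are 2n and filled circles 4n libraries, colours mark age, and bars are exact 95% Poisson intervals. Col3a1 spans 38.4 to 288 CPM, whereas Col4a5 spans 29.7 to 37.95 CPM.

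Among the fibrillar genes, the chain of type III fibres, Col3a1, had 38.4, 215, 44.0, 288, 81.45 and 114 CPM in the 6 libraries. The type I chains Col1a2 and Col1a1, which combine in the main fibre of the heart, had 19.0, 121, 22.3, 159, 45.9 and 65.2 CPM and 15.9, 148, 16.6, 143.5, 37.7 and 52.5 CPM. In these 3 genes E16.5-4n and P1-4n were highest and E16.5-2n and P1-2n lowest, with no overlap of the intervals between both pairs of libraries. Col5a1, a chain of the type V collagen built into type I fibrils, had 7.18, 33.05, 4.20, 40.9, 8.54 and 11.5 CPM. Its partner Col5a2 had 11.2, 37.7, 7.175, 38.2, 8.76 and 12.2 CPM, and both were highest in the same 4n libraries. Col11a1 (0.615 to 4.22 CPM) and Col27a1 (0.426 to 2.80 CPM) were rare and highest in P1-4n.

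Among the type IV genes, Col4a1 had 42.3, 69.2, 42.6, 101, 69.9 and 75.65 CPM and Col4a2 36.5, 54.6, 47.9, 76.8, 75.5 and 66.6 CPM in the same order. Their chains assemble into the most widespread type IV molecule, and both genes had their lowest value in E16.5-2n and their highest in P1-4n. Col4a1 was nearly as low in P1-2n (42.6 CPM), and Col4a2 nearly as high in P5-2n (75.5 CPM). Col4a5, a chain of a more restricted type IV molecule, had the smallest span of the 23 genes with at least 100 UMIs, with 37.95, 37.3, 29.7, 34.4, 35.7 and 31.4 CPM. Its head-to-head neighbour Col4a6 was rare and lower at later ages, with 4.72, 3.60, 1.40, 1.68, 0.558 and 0.924 CPM, and Col4a4 had 0.435 to 2.19 CPM.

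The type VI chains Col6a1, Col6a2 and Col6a3 form a single molecule and were each highest in the E16.5-4n and P1-4n libraries. Col6a1 had 9.505, 27.4, 5.59, 35.95, 8.37 and 9.89 CPM. Col6a2 had 10.3, 19.1, 10.1, 26.3, 10.7 and 9.29 CPM and Col6a3 2.735, 20.3, 3.04, 21.5, 7.64 and 7.50 CPM, while Col6a6 had 0.8205 to 7.58 CPM. The FACIT genes parted by age and ploidy. Col12a1 had 14.5 and 14.8 CPM in 2n and 4n CMs of E16.5 but 1.58, 4.12, 2.06 and 1.79 CPM in the 4 postnatal libraries, so it was high at E16.5 in both ploidies. Col14a1 had 3.49, 20.2, 4.20, 28.7, 9.26 and 12.2 CPM and Col16a1 1.23, 8.95, 0.730, 7.53, 1.95 and 3.21 CPM, and both were highest in E16.5-4n and P1-4n. Col9a2 had 0.167 to 2.75 CPM. Of the multiplexins, Col18a1, the precursor of endostatin, had 7.73, 26.7, 3.53, 14.95, 4.69 and 5.76 CPM and Col15a1 0.957, 6.27, 2.92, 18.3, 7.20 and 7.445 CPM. Col26a1, of no class here, had 0.426 to 4.12 CPM.

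The other 20 genes had 1 to 88 UMIs each over all CMs and held 1.07% of the 57817 collagen UMIs. The most abundant were Col5a3 (88 UMIs), Col23a1 (86), Col9a1 (84), Col9a3 (65) and Col13a1 (58). Col5a3, a further type V chain chosen after its values were seen, had 2, 1, 7, 36, 16 and 26 UMIs in the 6 libraries. The cartilage collagen Col2a1, likewise chosen, had 8, 13, 0, 2, 0 and 1 UMIs. Both genes were too rare for a level to be read from a single library.

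Marker-positive CMs carried far more collagen than marker-negative CMs in all 6 libraries. Their summed level was 3102 to 4065 CPM, whereas marker-negative CMs had 234.5, 793, 219, 794, 284 and 337.5 CPM in the 6 libraries. The level in marker-positive CMs thus spanned less than 2-fold, while that in marker-negative CMs followed the order of the whole libraries. Because marker-positive CMs were few, marker-negative CMs still held 84.2, 85.5, 85.25, 65.4, 64.55 and 63.8% of collagen UMIs.

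Under this rule the classes differed in how far they set both kinds of CMs apart. Cells with endothelial markers alone are on the marker-negative side of the folds below. Fibrillar collagens were higher in marker-positive than in marker-negative CMs by folds of 32.0, 5.79, 37.4, 4.92, 28.1 and 17.3 in the 6 libraries. For basement membrane collagens these folds were 3.15, 1.73, 5.17, 1.875, 4.59 and 2.82. Microfibril collagens (4.41 to 26.1), FACIT collagens (4.41 to 36.9) and multiplexins (2.84 to 30.0) were also higher in marker-positive CMs of each library. Within type IV, Col4a1 (2.26 to 7.89) and Col4a2 (1.74 to 5.585) were higher in marker-positive CMs, but Col4a5 had ratios of 1.03, 0.820, 0.8835, 0.845, 1.01 and 0.666 and all 6 intervals included 1. The folds in E16.5-2n and P1-2n rest on 25 and 34 marker-positive CMs.

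**Figure D2:**
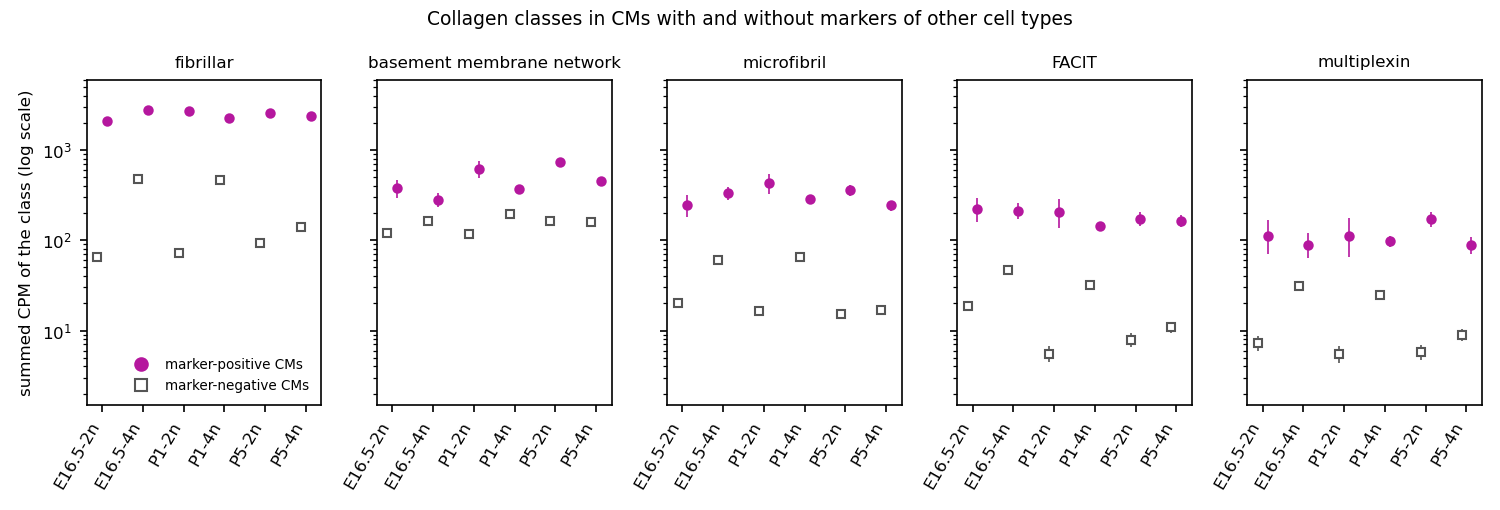
Summed level in CPM (log axis) of 5 collagen classes in marker-positive (filled circles) and marker-negative (open squares) CMs of each library, with exact 95% Poisson intervals. Fibrillar collagens lie at 2115 to 2794 CPM in marker-positive and 66.1 to 482 CPM in marker-negative CMs, and basement membrane collagens at 279.6 to 743.5 and 118 to 197 CPM.

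Fibrillar levels went up with each further marker detected. In E16.5-4n, Col3a1 had 60.6 CPM in CMs with none of the 5 markers, 452 CPM with 1, 843 CPM with 2 and 1242 CPM with 3 or more. In P1-4n the same steps were 49.8, 295, 687 and 1010.1 CPM. Col4a1 changed less, with 47.6, 112, 167.5 and 154 CPM in E16.5-4n and 59.2, 119, 169.6 and 199 CPM in P1-4n. Col4a5 showed no such steps, with 36.8, 42.35, 37.3 and 30.8 CPM and 35.9, 33.7, 33.2 and 29.6 CPM.

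**Figure D3:**
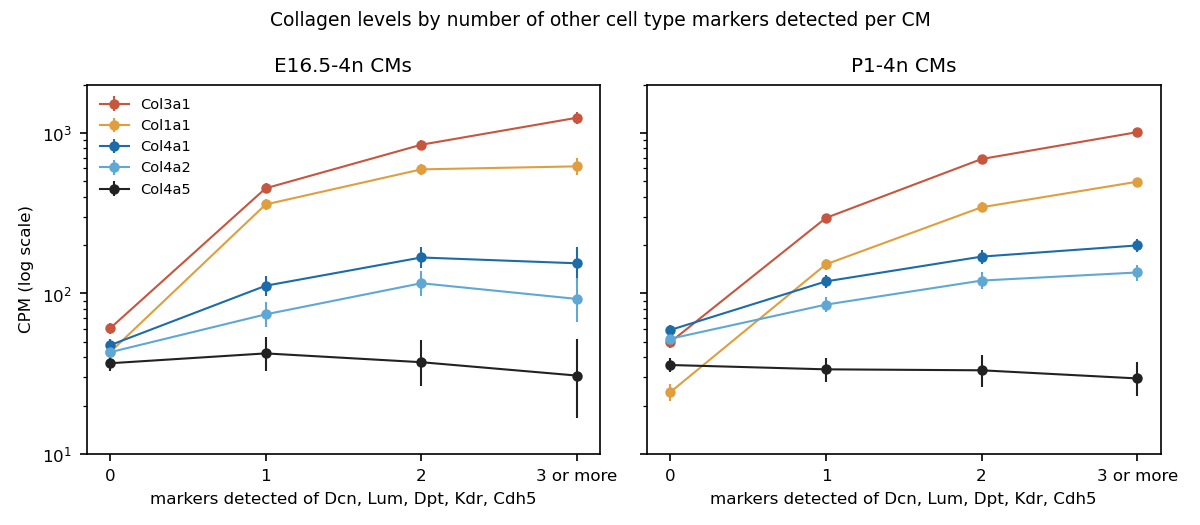
Level in CPM (log axis) of 5 collagen genes in E16.5-4n and P1-4n CMs with 0, 1, 2 or at least 3 of the markers Dcn, Lum, Dpt, Kdr and Cdh5 detected; bars are exact 95% Poisson intervals. Col3a1 goes from 60.6 to 1242 CPM in E16.5-4n, whereas Col4a5 goes from 36.8 to 30.8 CPM.

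CMs were also placed in a set where they had at least 2 detected markers of a cell type list and more than of any other list. The mural list includes Abcc9, also a CM gene. In P1-4n there were 533 CMs in the fibroblast set, 313 in the endothelial, 251 in the mural, 61 in the immune and 26 in the epicardial set, beside 1865 CMs with no UMI of any of these markers. Col3a1 had 1176, 160.2, 283, 207, 868 and 41.9 CPM in these sets, marker-free CMs last. The fibroblast and epicardial sets were thus far above the rest. The multiplexins parted between sets, with 19.5 CPM of Col18a1 in the fibroblast and 54.8 CPM in the endothelial set, against 74.0 and 20.2 CPM of Col15a1. In E16.5-4n the same sets had 33.6 and 192 CPM of Col18a1 and 35.5 and 6.70 CPM of Col15a1. Col4a1 had 119.5, 236, 169, 57.6 and 37.0 CPM in the fibroblast, endothelial, mural, immune and marker-free CMs of E16.5-4n, highest in the endothelial set. Col4a5 had 33.1, 31.0, 37.1, 28.3 and 35.6 CPM in those of P1-4n.

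The share of cells with a UMI was set beside that of the immune set, which is no clean zero for collagen, since macrophages can express fibrillar collagens and these cells also had all 4 CM markers. In P1-4n, Col3a1 was detected in 93.1% of fibroblast-set, 30.7% of endothelial-set, 31.15% of immune-set and 10.0% of marker-free CMs, at medians of 4264, 4819, 4576 and 2588 UMIs per cell. With each cell thinned to 1000 UMIs the shares were 64.2, 9.265, 11.5 and 4.34%, and in E16.5-4n 62.1, 10.2, 14.3 and 4.25%. The immune set had only 61 cells in P1-4n and 35 in E16.5-4n, with exact intervals of 4.74 to 22.2 and 4.81 to 30.3%. The fibroblast set lay above these intervals. Those of the endothelial-set and marker-free CMs overlapped them, which does not show that the shares were equal. Marker-free CMs had the lower share in both libraries and overlapped only at the edge, with 3.46 to 5.37% in P1-4n and 3.57 to 5.025% in E16.5-4n. For Col4a1 the thinned shares in P1-4n were 16.3, 18.5, 11.5 and 4.18%, where the exact interval of the immune set (4.74 to 22.2%) overlapped all others. For Col4a5 they were 3.19, 1.92, 1.64 and 3.32%. The CM genes took 2.61, 2.61, 2.62 and 3.095% of the UMIs in these 4 sets of P1-4n, and whether collagen and CM transcripts came from the same cell was not tested.

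The type I and III genes were more uneven over cells than the type IV genes. In CMs thinned to 1000 UMIs, the variance of the UMI number divided by its mean, which is 1 for random counting, had a median over the 6 libraries of 2.65 for Col3a1, 2.21 for Col1a2 and 2.19 for Col1a1. It was 1.11 for Col4a1, 1.04 for Col4a2, 1.01 for Col4a5 and 1.02 to 1.16 for Col5a1, Col5a2, Col6a1 and Col6a2, the other 4 genes with at least 20 thinned UMIs in every library. These 4 genes had 25 to 208 thinned UMIs per library. The quotient moves towards 1 as UMIs get fewer, so their values do not show that they were as even as the type IV genes. Rarer genes are not given. Thinning left out CMs under 1000 UMIs, which were 163, 23, 700, 0, 20 and 0 in the 6 libraries. Col3a1 was detected in 1.99, 12.2, 2.62, 15.0, 4.19 and 6.65% of thinned CMs in the 6 libraries (unthinned 3.67, 18.3, 4.50, 28.0, 10.2 and 14.9%). Col4a5 was detected in a nearly even 3.90, 3.40, 2.997, 3.29, 3.57 and 3.39% (unthinned 9.04, 9.24, 6.335, 12.8, 13.2 and 14.6%).

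How tetraploid CMs differed from diploid CMs was compared at each age. Collagens were higher in 4n CMs at E16.5 and P1 and less so at P5, with summed folds of 3.26 (3.15 to 3.38), 4.225 (4.09 to 4.37) and 1.18 (1.14 to 1.22). A gene was counted as different past a fold of 2 where both libraries together had at least 50 of its UMIs. Rare genes could reach this minimum only through the library where they were high, such as Col26a1 and Col27a1 in 4n CMs at P1. The counts therefore describe the genes that passed, and are no further evidence beside the summed folds. The same holds for the counts between ages and for the lists of other genes given below. At E16.5, 14 of 22 collagen genes were higher in 4n CMs and 0 lower, against 5.88% and 0.167% of all genes. At P1, 19 of 23 were higher and 0 lower, against 7.41% and 0.00920%. At P5, 0 of 17 were higher and 0 lower, against 1.98% and 0.568%. The median log2 ratio was 1.80, 2.50 and 0.30 over the collagen genes and 0.04, 0.06 and 0.02 over all genes at the 3 ages.

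Of the 5 main classes, fibrillar collagens had the highest ratios over all CMs at each age. The intervals of the FACIT folds overlapped theirs at P1 (5.06 to 7.47) and P5 (1.15 to 1.60). In marker-negative CMs at P5, multiplexins had a fold of 1.56 (1.21 to 2.03) and fibrillar collagens 1.51 (1.41 to 1.61). Over all CMs, the log2 ratio of Col1a1 was 3.22 (3.02 to 3.42) at E16.5, 3.11 (2.93 to 3.30) at P1 and 0.48 (0.34 to 0.62) at P5. At the same ages Col1a2 had 2.67, 2.84 and 0.51, Col3a1 2.49, 2.71 and 0.49, Col5a1 2.20, 3.28 and 0.43 and Col5a2 1.75, 2.41 and 0.47. As a class, fibrillar collagens had folds of 5.94 (5.60 to 6.29), 7.07 (6.71 to 7.45) and 1.41 (1.35 to 1.47). Microfibril collagens had folds of 3.02, 4.53 and 1.04, FACIT collagens 2.43, 6.12 and 1.36 and multiplexins 3.80, 5.15 and 1.11, lowest at P5 in each class. Col12a1, in contrast, had a log2 ratio of 0.03 (-0.25 to 0.32) at E16.5.

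Basement membrane collagens had the lowest ratios of these classes at E16.5 and P1, with folds of 1.35 (1.27 to 1.44), 1.76 (1.67 to 1.86) and 0.954 (0.9085 to 1.00). Col4a1 had log2 ratios of 0.71 (0.56 to 0.86), 1.25 (1.12 to 1.37) and 0.11 (0.00 to 0.23) and was past a fold of 2 at P1. Col4a4 lay at that limit at P1, with 43 and 18 UMIs in 4n and 2n CMs and a fold of 1.998 (1.13 to 3.68), and was past it in marker-negative CMs at 2.09 (1.15 to 3.955). Col4a2 had 0.58, 0.68 and -0.18. Col4a5 had -0.02 (-0.20 to 0.15), 0.21 (0.04 to 0.38) and -0.18 (-0.35 to -0.02) and stayed within a fold of 2 at each age.

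Fibroblast, endothelial and immune markers were highest in the same libraries. The 5 fibroblast markers (Dcn, Lum, Dpt, Pdgfra and Tcf21), all detected in each library, summed to 36.0, 189, 39.7, 240.1, 73.1 and 101 CPM in the 6 libraries. The 6 endothelial markers had 26.0, 101, 26.8, 115.5, 59.0 and 61.6 CPM and the 6 immune markers 2.94, 24.2, 6.57, 30.2, 8.37 and 8.59 CPM, with all detected but 1 immune marker in E16.5-2n. The 6 mural markers had 43.5 to 179 CPM, of which Abcc9, also a CM gene, made up 33.7 to 92.8 CPM, the 4 epicardial markers 3.10 to 18.7 CPM and the 3 erythroid markers 168 to 1467 CPM. Fibroblast-set cells were 0.790, 6.80, 0.722, 11.2, 1.77 and 4.87% of CMs. The ratio of Col3a1 to Dcn UMIs ran from 1.76 (1.53 to 2.02) in E16.5-2n to 2.30 (2.09 to 2.53) in P5-2n. In marker-negative CMs, whose rule uses Dcn itself, it ran from 1.63 (1.37 to 1.93) in E16.5-2n to 2.49 (2.34 to 2.65) in P1-4n. The ratio there depends in part on that rule. The part of these markers in the collagen differences was not tested beyond the ratios within narrower sets of CMs.

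In marker-negative CMs the summed 4n-to-2n folds were 3.38 (3.25 to 3.52) at E16.5, 3.63 (3.50 to 3.77) at P1 and 1.19 (1.14 to 1.23) at P5. At E16.5, 12 of 19 genes were higher and 0 lower, against 5.64% and 0.169% of all genes. At P1 these were 18 and 0 of 21, against 5.95% and 0.0188%, and at P5 0 and 0 of 16, against 2.14% and 0.678%. The difference was smaller in stricter sets. In CMs with none of the 5 markers (64.8 to 95.2% of CMs) the summed folds were 2.01 (1.91 to 2.12), 2.06 (1.96 to 2.17) and 1.01 (0.961 to 1.06). In CMs with no UMI of the fibroblast, endothelial, mural, immune and epicardial lists (39.3 to 82.2% of CMs), a set chosen after the values were seen, they were 1.62 (1.525 to 1.72), 1.80 (1.68 to 1.92) and 0.963 (0.902 to 1.03). Because the mural list holds Abcc9, also a CM gene, this set leaves out CMs that express it too. It kept 74.8% of P1-2n but 39.3% of P1-4n CMs.

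Fibrillar collagens had higher folds than the sum of all collagens in these strict sets too. In CMs with none of the 5 markers, fibrillar collagens had 30.8 CPM in 2n and 167 CPM in 4n CMs at E16.5 and 35.35 and 133 CPM at P1. The folds were 5.44 (4.88 to 6.07), 3.77 (3.42 to 4.175) and 1.21 (1.085 to 1.35) at the 3 ages, and 4.39 (3.86 to 5.00), 3.71 (3.25 to 4.235) and 1.26 (1.10 to 1.455) in CMs free of all listed markers. There Col4a1 had folds of 1.06 (0.903 to 1.23), 1.28 (1.09 to 1.50) and 0.908 (0.791 to 1.04) and Col4a2 1.12 (0.954 to 1.30), 0.977 (0.8345 to 1.14) and 0.858 (0.759 to 0.969). The share of the fibrillar UMIs in marker-free CMs that was free RNA was not tested, and such cells had fewer UMIs than all CMs (medians of 1746 to 4392 per cell).

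**Figure D4:**
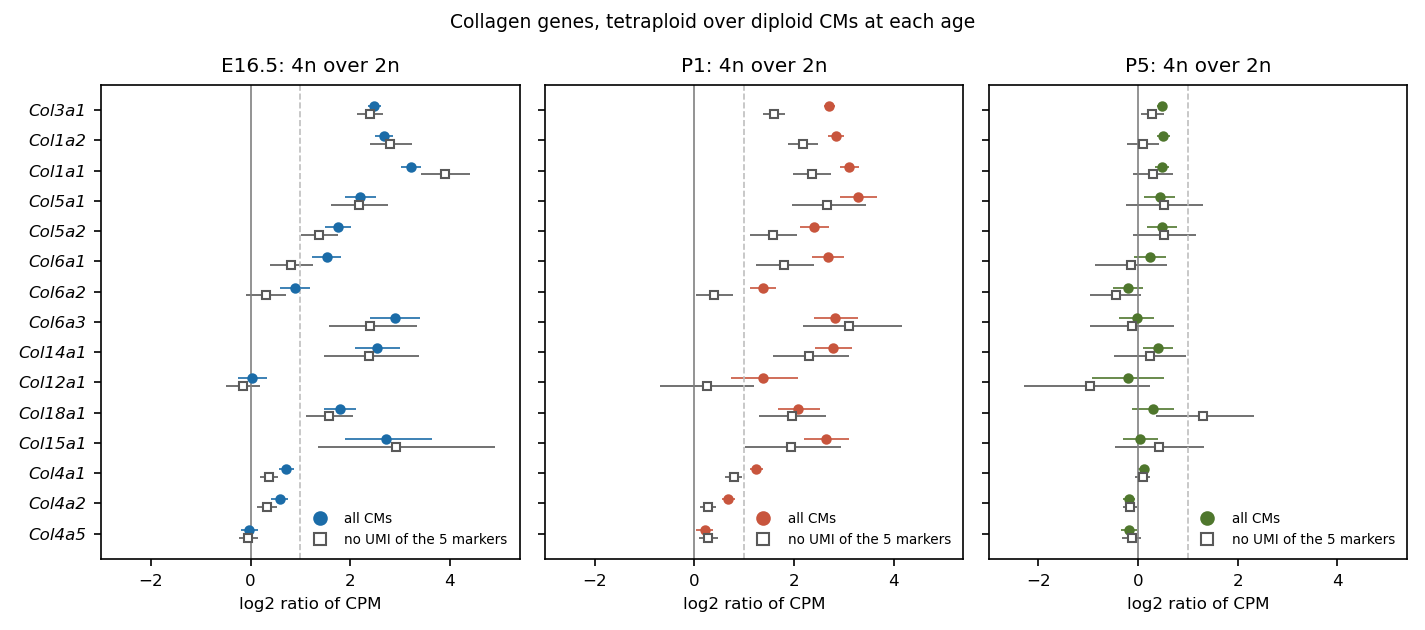
Log2 ratio of CPM in 4n over 2n CMs at each age for 15 collagen genes, over all CMs (filled circles) and over CMs with no UMI of the 5 markers (open squares), with exact 95% intervals; the solid line marks 0 and the dashed line a fold of 2. Over all CMs, Col1a1 lies at 3.22 and Col4a5 at -0.02 at E16.5, and no gene lies past the dashed line at P5.

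From E16.5 to P1 the sums stayed within a fold of 2 in both ploidies, but single genes passed it. The median log2 ratio of all genes was -0.35 in 2n and -0.30 in 4n CMs over this interval, and the ratios and counts below are not corrected for it. With that median subtracted, the log2 ratio of the summed collagens was 0.23 in 2n and 0.56 in 4n CMs. The summed collagens had a fold of 0.925 (0.8855 to 0.966) in 2n CMs, whose direction turned under other scalings, and of 1.20 (1.17 to 1.225) in 4n CMs. In 2n CMs, 1 of 16 genes was higher at P1 and 3 lower, against 2.29% and 13.9% of all genes. Col15a1 was higher, with a log2 ratio of 1.61 (0.73 to 2.58), and Col12a1 (-3.20, -3.84 to -2.61), Col4a6 (-1.75, -2.50 to -1.06) and Col18a1 (-1.13, -1.61 to -0.66) were lower. In 4n CMs, 2 of 26 were higher and 5 lower, against 3.53% and 12.5%. These were Col15a1 (1.54, 1.19 to 1.91) and Col4a4 (1.03, 0.13 to 2.01) on the higher side and Col12a1 (-1.85, -2.24 to -1.47), Col4a6 (-1.10, -1.79 to -0.43) and, named after their values were seen, the rare genes Col9a1 (-1.56), Col9a3 (-2.25) and Col23a1 (-1.08) on the lower. Col15a1 up and Col12a1 and Col4a6 down were shared by both ploidies. The counts of lower genes were near the shares of all genes in both ploidies, and those of higher genes were 1 and 2 genes. Nothing is read from these counts. Marker-positive cells were included in all values above. Without them, tetraploid CMs had a summed fold of 1.001 (0.975 to 1.027), or a log2 ratio of 0.32 with the median of all genes subtracted. The diploid fold was then 0.932 (0.889 to 0.977). Fibrillar collagens of tetraploid CMs changed from a fold of 1.21 over all cells to 0.970 (0.938 to 1.003). Basement membrane collagens stayed higher at P1, by 1.21 (1.149 to 1.283).

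From P1 to P5 the sums moved in opposite directions, with folds of 1.67 (1.61 to 1.73) in 2n and 0.466 (0.455 to 0.478) in 4n CMs, while the median log2 ratio of all genes fell by 0.09 and 0.17. In 2n CMs, 6 of 16 genes were higher at P5 and 0 lower, against 4.05% and 2.43% of all genes. They were Col1a1 (1.18), Col1a2 (1.05), Col5a1 (1.03), Col6a3 (1.33), Col14a1 (1.14) and Col15a1 (1.30, all log2). In marker-negative 2n CMs the summed fold was 1.30 (1.245 to 1.36) and 0 of 15 genes were higher and 0 lower, against 3.30% and 2.67%. Marker-positive cells were 0.463% of P1-2n and 1.88% of P5-2n CMs, at medians of 1831 and 3759 UMIs per cell over all CMs. Cells with more UMIs reach 3 markers more easily, so these shares are not at equal depth. The fibroblast markers had 39.7 and 73.1 CPM in these 2n libraries.

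In 4n CMs, 0 of 24 genes were higher at P5 and 19 lower, against 2.67% and 7.75% of all genes. In marker-negative 4n CMs 0 of 20 were higher and 17 lower, against 2.64% and 7.89%, and the summed fold was 0.425 (0.412 to 0.438). The lower genes included Col6a1, Col6a2, Col6a3 and Col6a6 (log2 -1.50 to -1.86), Col1a1 (-1.45), Col3a1 (-1.33) and Col5a1 (-1.83). Col4a1 (-0.42), Col4a2 (-0.20) and Col4a5 (-0.13) stayed within a fold of 2. Fibroblast-set cells were 11.2% of P1-4n and 4.87% of P5-4n CMs.

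Ratios between chains of a molecule differed between libraries as well. Col1a1 to Col1a2, which combine in type I collagen, had UMI ratios in the 6 libraries of 0.8345, 1.22, 0.746, 0.903, 0.820 and 0.806. E16.5-4n, with an interval of 1.14 to 1.31, stood above the other libraries, also in marker-negative CMs (1.26 against 0.719 to 0.863). Col4a1 to Col4a2 was 1.16, 1.27, 0.8895, 1.315, 0.925 and 1.135, higher in 4n than in 2n CMs at each age. The intervals did not overlap at P1, with 0.802 to 0.986 in 2n and 1.23 to 1.41 in 4n CMs, or at P5, with 0.856 to 1.00 and 1.05 to 1.23, and did so at E16.5. Over all CMs, Col6a3 to Col6a2 was lowest in the early 2n libraries, at 0.265 (0.182 to 0.3775) in E16.5-2n and 0.301 (0.215 to 0.4155) in P1-2n against 1.06, 0.818, 0.717 and 0.807 in the other 4. In marker-negative CMs it was 0.219, 0.973, 0.230, 0.756, 0.463 and 0.6275. There P5-2n (0.332 to 0.639) also lay below E16.5-4n (0.802 to 1.18) and P1-4n (0.641 to 0.890). In marker-positive CMs the early 2n intervals were wide, with 0.284 to 1.73 in E16.5-2n and 0.424 to 1.85 in P1-2n.

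Of the multiplexins, Col18a1 was lower relative to Col15a1 after E16.5. Col18a1 to Col15a1 was 8.07 (4.62 to 15.2), 4.26 (3.34 to 5.48), 1.21 (0.810 to 1.81), 0.819 (0.6995 to 0.958), 0.651 (0.489 to 0.864) and 0.774 (0.595 to 1.00) in the 6 libraries, and the intervals of E16.5 did not overlap those of any later library. In marker-negative CMs the ratio was 9.40, 4.67, 1.78, 0.991, 0.737 and 1.00. There Col18a1 was still above Col15a1 in P1-2n (1.14 to 2.84), and the intervals of P1-4n, P5-2n and P5-4n included 1. In the X-linked pair, Col4a6 to Col4a5 was 0.124, 0.0963, 0.0470, 0.0488, 0.0156 and 0.0294, lower at each later age. The P5 values rest on 10 Col4a6 UMIs in 2n and 17 in 4n CMs. In 4n CMs the intervals of P1 (0.0333 to 0.0692) and P5 (0.0170 to 0.0475) overlapped. In 2n CMs those of P1 (0.0295 to 0.0714) and P5 (0.00746 to 0.0289) did not.

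**Figure D5:**
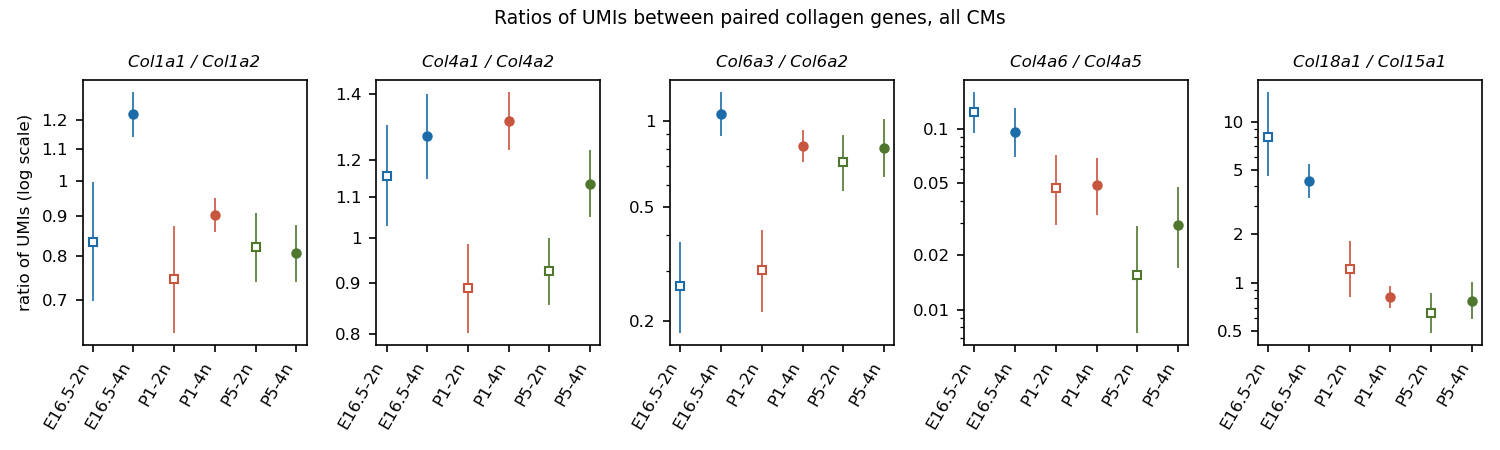
Ratio of UMIs (log axes, each panel with its own range) of 5 pairs of collagen genes in all CMs of each library, with exact 95% intervals; open squares are 2n and filled circles 4n libraries, and colours mark age. Col18a1 over Col15a1 goes from 8.07 in E16.5-2n to 0.651 in P5-2n, and Col6a3 over Col6a2 is lowest in E16.5-2n (0.265) and P1-2n (0.301).

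Genes that modify, cross-link, bind or degrade collagen were counted in 5 lists in 4n over 2n CMs, beside the 5.88% of all genes at E16.5 and the 7.41% at P1 that were higher, and none of the listed genes was past a fold of 2 in the lower direction. In the list of chain modification and folding, 1 of 17 genes was higher at E16.5 and 2 of 17 at P1, shares near those of all genes, so nothing is read from this list. The genes were P3h3 (log2 2.11 and 2.02) and, at P1, P3h2 (1.80), both of the prolyl hydroxylase family. Serpinh1, the collagen chaperone with the most UMIs of the list, had 0.17 and 0.27. In the list of processing and cross-linking, 1 of 6 was higher at E16.5 and 6 of 8 at P1. The lysyl oxidase Lox had 2.35 and 2.44, and at P1 its relatives Loxl1 and Loxl2 had 2.17 and 1.61, the procollagen proteinases Adamts2 and Bmp1 2.88 and 1.22, and the collagen-binding Sparc 1.12. These values are over all CMs. In marker-negative CMs the processing list had 1 of 6 and 4 of 8 and the modification list 1 of 17 and 1 of 16. The shares of all genes there were 5.64% and 5.95%.

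In the breakdown list, 3 of 7 genes were higher at E16.5 and 5 of 8 at P1. The gelatinase Mmp2 had 2.70 and 2.53, the membrane-bound Mmp14 1.05 and 1.78 and the collagen uptake receptor Mrc2 1.93 and 2.36. At P1 the inhibitor Timp4 (1.72) and the cathepsin Ctsk (1.32) were also higher, and Timp3, with the most UMIs, had 0.36. Among receptors, a list too short to set against a share, 1 of 4 was higher at each of E16.5 and P1, namely Ddr2 (1.43 and 1.60), whereas the integrin subunit Itgb1 had 0.03 and 0.08. Among basement membrane partners, 1 of 10 was higher at both ages, near the share of all genes, namely Nid1, which links laminin to type IV collagen (1.21 and 2.21), and the perlecan gene Hspg2 had 0.16 and 0.67. At P5, 0 genes of the 5 lists were past the fold. In marker-negative CMs the breakdown and basement membrane lists kept their counts at E16.5 and P1, and receptors had 0 of 3 and 1 of 4. The shares of all genes there were 5.64% and 5.95%.

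With age, the modification and folding list held 6 of 17 genes that were lower and 1 higher at P1 than at E16.5 in 2n CMs, and 3 of 17 lower and 0 higher in 4n CMs, beside the 13.9% and 12.5% of all genes that were lower, to which the 4n count is close. P4ha1 and Plod2, named after their values were seen, encode a prolyl and a lysyl hydroxylase of collagen chains. P4ha1 went from 25.0 to 6.20 CPM in 2n and from 29.6 to 11.2 CPM in 4n CMs, and Plod2 from 27.5 to 9.30 CPM and from 30.1 to 13.4 CPM. Serpinh1 went from 424 to 205 CPM in 2n and from 476 to 246 CPM in 4n CMs, past a fold of 2 in 2n CMs only. From P1 to P5 in 4n CMs, 6 of 8 genes of the breakdown list were lower and 0 higher, beside 7.75% and 2.67% of all genes. In marker-negative 4n CMs 5 of 8 were lower and 0 higher, beside 7.89% and 2.64%.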

How the data were processed

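Single-cell RNA sequencing (10x Genomics 3' chemistry, version 2) had been made from sorted CMs in 6 libraries. The authors processed the reads with Cell Ranger, which uses STAR, against mm10 (GRCm38), and deposited raw counts of UMIs per gene and cell, strand-specific and including introns. Library totals were 13213992 to 19714177 UMIs over deposited cells. Reads in introns and at the 3' end mean that a count is not tied to a full-length transcript, and UMIs remove PCR copies only as far as barcodes are unique. A table of the authors' own comparison of E16.5 and P5 cells (fold changes and p-values) and a list of background gene symbols were not used.

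Groups were taken from the sample labels. CMs were cells with at least 1 UMI of each of 4 CM markers. UMIs were summed over cells and divided by all UMIs of these cells (CPM). Levels have exact Poisson intervals, ratios the exact interval of a binomial split of UMIs, and shares of cells Clopper-Pearson intervals, all at 95%. Genes with at least 50 UMIs in the libraries compared were counted past a fold of 2. Collagen genes with at least 100 UMIs in CMs were named with their levels, and pathway genes where past a fold of 2 in 4n over 2n CMs or with the most UMIs of their list. The members and lists were chosen with earlier results of these data known. Alternatives were other scalings, thinning to 1000 UMIs per cell, other definitions of CMs and of marker-negative cells, leaving out the 5% of CMs with most UMIs, and a minimum of 20 UMIs. Scripts were tested on simulated data and used Python 3.11.15, numpy 2.4.6, scipy 1.17.1 and matplotlib 3.10.9.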

Additional observations from a re-analysis of the deposited data

Results flagged for a closer look

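Several changes went in opposite directions in the groups compared, with counting intervals on opposite sides of 0, and each is given as a difference of log2 ratios with both ratios in parentheses. With 1 library per group these differences were not tested. From P1 to P5, 4n minus 2n CMs, the summed collagens differed by -1.84 (-1.10 against 0.74). Over the same interval the difference was -2.22 (-1.33 against 0.89) for Col3a1, -2.33 (-1.29 against 1.05) for Col1a2, -2.63 (-1.45 against 1.18) for Col1a1, -1.13 (-0.42 against 0.72) for Col4a1, -0.86 (-0.20 against 0.66) for Col4a2, -2.85 (-1.83 against 1.03) for Col5a1, -2.44 (-1.86 against 0.58) for Col6a1, -2.38 (-1.24 against 1.14) for Col14a1, -2.85 (-1.52 against 1.33) for Col6a3 and -2.60 (-1.29 against 1.30) for Col15a1. From E16.5 to P1, 4n minus 2n CMs, it was 0.37 (0.26 against -0.11) for the summed collagens, whose 2n ratio turned direction under other scalings, 1.08 (0.31 against -0.78) for Col5a1 and 1.16 (0.39 against -0.76) for Col6a1. In 4n over 2n CMs, Col4a2 differed by 0.76 (0.58 against -0.18) between E16.5 and P5 and by 0.86 (0.68 against -0.18) between P1 and P5, and Col4a5 by 0.39 (0.21 against -0.18) between P1 and P5. The P1-4n library enters most of these differences. It also had the highest level of fibroblast markers (240.1 CPM), whose part in the differences was not tested. Restricted to marker-negative tetraploid CMs, the summed log2 ratio from E16.5 to P1 was 0.0007 (-0.036 to 0.038). Col5a1 was nearly level there (28.06 against 28.04 CPM), while Col6a1 moved from 23.62 to 25.98 CPM. For P1 to P5 the summed ratios stayed opposite without marker-positive cells (-1.23 against 0.38). Diploid Col6a1 did not rise over that interval once these cells were left out (4.296 against 4.171 CPM).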

How the results depend on the processing

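Values here are log2 ratios of the summed collagens unless called counts. As reported they were 1.71, 2.08 and 0.24 (all CMs) and 1.76, 1.86 and 0.25 (marker-negative CMs) for 4n over 2n at E16.5, P1 and P5, and -0.11, 0.26, 0.74 and -1.10 for P1 over E16.5 in 2n and 4n CMs and P5 over P1 in 2n and 4n CMs. Of 90 recomputed values, 41 stayed near the reported one, 44 moved beyond its counting interval or, for counts, 1.5-fold, and 5 turned direction. In the same order, scaling by the median of ratios gave 1.60, 1.95 and 0.20 (all CMs) and 1.65, 1.76 and 0.20 (marker-negative CMs) for 4n over 2n at E16.5, P1 and P5, and 0.23, 0.59, 0.84 and -0.90 for P1 over E16.5 in 2n and 4n CMs and P5 over P1 in 2n and 4n CMs. Thinning to 1000 UMIs gave 1.97, 2.11 and 0.22 (all CMs) and 1.94, 1.93 and 0.30 (marker-negative CMs) for 4n over 2n at E16.5, P1 and P5, and 0.05, 0.18, 0.86 and -1.02 for P1 over E16.5 in 2n and 4n CMs and P5 over P1 in 2n and 4n CMs. It left out CMs under 1000 UMIs, 700 of 7340 in P1-2n but 0 to 163 in each other library. Leaving out the 5% of CMs with most UMIs gave 1.94, 2.14 and 0.33 (all CMs) and 1.87, 1.89 and 0.28 (marker-negative CMs) for 4n over 2n at E16.5, P1 and P5, and 0.05, 0.25, 0.53 and -1.28 for P1 over E16.5 in 2n and 4n CMs and P5 over P1 in 2n and 4n CMs. All deposited cells, also those not taken as CMs, gave 1.60, 2.01 and 0.14 (all cells) and 1.65, 1.80 and 0.16 (marker-negative cells) for 4n over 2n at E16.5, P1 and P5, and -0.21, 0.20, 0.81 and -1.06 for P1 over E16.5 in 2n and 4n cells and P5 over P1 in 2n and 4n cells. The total without the 50 most abundant genes gave 0.12, 0.50, 0.78 and -1.06 for the age comparisons. The fold of P1 over E16.5 in 2n CMs therefore turned direction under the median of ratios (0.2325), thinning (0.0462), the total without abundant genes (0.121) and without the largest CMs (0.0456), and the cause was not tested. The intervals under thinning (-0.0591 to 0.152) and without the largest CMs (-0.0263 to 0.117) included 0. Requiring 2 UMIs of each CM marker gave 0.29 for all CMs at P5. In marker-negative CMs, counting cells as positive from 2 markers gave 1.48, 1.53 and 0.17 and from 1 marker 1.01, 1.04 and 0.0164. CMs with no marker of the 5 lists, chosen after seeing the data, gave 0.70, 0.85 and -0.0539, the last with an interval of -0.149 to 0.0411. Counts past a fold of 2 (as reported 14, 19 and 0 at E16.5, P1 and P5) became 9 and 12 at E16.5 and P1 in thinned cells, where fewer UMIs left fewer genes above the minimum, and at P5 1 with 2 UMIs of each CM marker and 3 with a minimum of 20 UMIs.

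No paired analysis was possible because there was 1 library per condition, and for the same reason no replicate was left out. Depth limits the rare genes, since 20 of 43 had fewer than 100 UMIs in all CMs together.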
